A study of Bos indicus with 12 samples.

Results

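CpGs at which some animals were read as almost fully methylated and others as almost unmethylated were described in *longissimus thoracis* muscle of 12 Nelore steers. A cytosine was included when it lay on autosomes 1 to 29 and at least 1 animal had a methylation of 5% or less while at least 1 other had 95% or more. These all-or-none CpGs were 2276 of the 629700 autosomal cytosines covered in every animal (0.361%), and the whole table held 635469 cytosines. Each strand of a CpG was a separate cytosine, so the 2276 cytosines (1088 plus-strand and 1188 minus-strand) belonged to 2191 CpGs. The rule used the methylation values themselves, so the spread between animals at these CpGs is a description and carries no test. The animals were *Bos indicus* steers raised on feedlots, 6 of the Tough group (higher shear force, lower tenderness) and 6 of the Tender group (lower shear force, higher tenderness), with 1 reduced representation bisulfite sequencing (RRBS) library per animal. Shear force is the force needed to cut a steak. It is dated 7 days after slaughter in the sample labels and 14 days in the study's text. The animals of each group were chosen from different sires according to the study's methods, which leaves sires shared between the groups possible. The numbers 1 to 6 name the Tough and 7 to 12 the Tender animals.

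In mammals, methylation occurs mainly at CpG, a cytosine followed by a guanine, and the enzyme that maintains it after DNA replication copies it from strand to strand, so both strands of a CpG usually carry the same state. RRBS cuts DNA with *MspI*, which recognises CCGG, and reads the bases next to the cut. Bisulfite turns unmethylated cytosine into a base read as thymine, so an unmethylated cytosine and a thymine in the animal's own DNA are read alike. Where a base change removes a CpG, a strand left with a thymine or an unmethylated cytosine at that position is read as unmethylated. The reads were aligned to a *Bos taurus* reference, ARS-UCD1.2, and were compared with that reference and not with the DNA sequence of each animal. Genotypes of the 12 animals were not analysed here, so whether these CpGs are polymorphic was not tested. A methylation value is a share of reads over all cells of a muscle sample, and cells of different types and alleles of different state cannot be told apart in it.

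The animals differed in depth. Before the authors' scaling, the reads over all cytosines ranged from 14521826 in Tough 6 to 23470740 in Tough 1, with a median of 20 to 33 reads per cytosine. The scaled reads, on which the values rest, ranged from 18399401 to 23470740 per animal, with a median of 25 to 33. At the all-or-none CpGs the median coverage was 28 scaled reads, the same as over all autosomal cytosines, and single values ranged from 10 to 458. With 28 reads, a methylation of 50% has a binomial standard error of 9.45 percentage points, and with 10 reads 15.8 points. A value of 0% from 28 reads allows a methylation of up to 10.7%, and from 10 reads up to 30% (3 reads of the total). These errors cover counting only, since copies of a molecule made by PCR were not separated.

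The 27312 values of the 12 animals at the all-or-none CpGs fell into 3 concentrations. Near 0% (5% or less) lay 5226 values (19.1%), near 50% (35 to 65%) 6964 values (25.5%) and near 100% (95% or more) 6001 values (22.0%). Between 5 and 35% there were 2564 values (9.39%), and between 65 and 95% there were 6557 (24.0%). The emptiest stretch was from 10 to 20%, with 419 values, against 2556 values from 50 to 60%. Over all autosomal cytosines, 52.1% of values were near 0%, 7.77% near 50% and 10.5% near 100%. The rule guaranteed the values at both ends, but it asked for nothing near 50%. Where all animals had at least 20 reads, which was so at 547 all-or-none CpGs, the shares near 0, 50 and 100% were 17.7%, 28.3% and 22.7%.

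**Figure D1:**
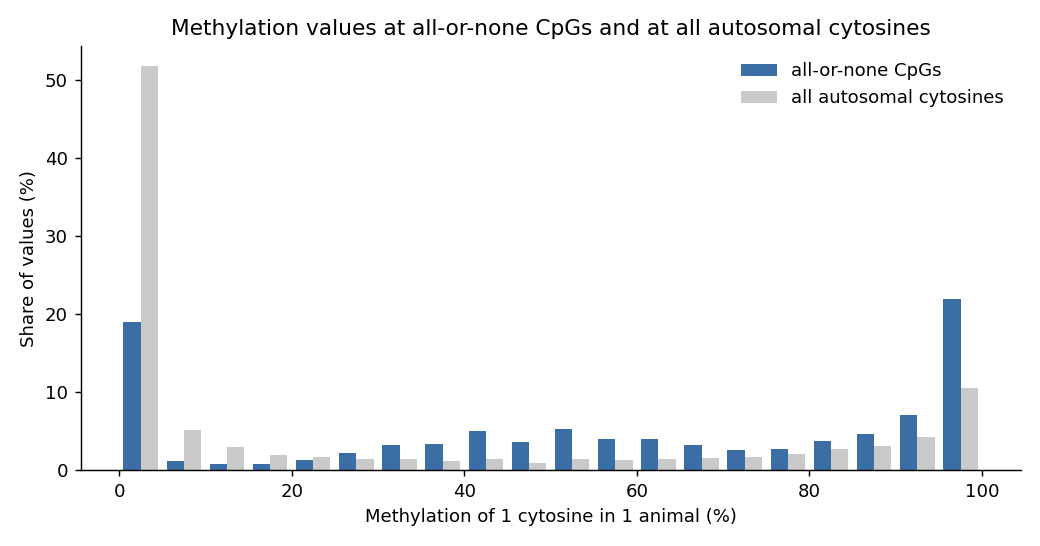
Share of methylation values (y axis, %) in bins of 5% methylation (x axis), 1 value per cytosine and animal, at the 2276 all-or-none CpGs (blue) and at all 629700 autosomal cytosines (grey). The blue values are high at both ends, which the rule fixed, lowest between 10 and 20%, and form a broad hump around 50% that the grey values do not show.

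All 3 states occurred together at most of these CpGs. At 2155 of the 2276 (94.7%), at least 1 animal was near 50% besides those near 0 and near 100%. The rule fixed the classes at both ends, and 1 of the remaining animals near 50% was enough for the third. The share that unlinked values would give was not computed, so the 94.7% is a description only. At 121 no animal was near 50%, and at 3 every animal was either near 0 or near 100%. All 12 animals fell into 1 of the 3 classes at 71 CpGs. At 519 CpGs each class held at least 2 animals. A single animal often decided membership, since 1 animal alone was near 0% at 1095 CpGs and 1 alone was near 100% at 854. The number of animals near 50% was most often 3, at 535 CpGs, and it was 9 at the most, at 4 CpGs. Values of exactly 0% and exactly 100% both occurred at 1622 CpGs.

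Each animal contributed to all classes. The number of all-or-none CpGs near 0% had a lowest, median and highest value of 412, 429.5 and 490 in Tough animals and 359, 435.5 and 472 in Tender animals. Near 50%, these were 513, 567.5 and 707 in Tough and 507, 593.5 and 619 in Tender animals. Near 100%, they were 412, 498.5 and 593 in Tough and 375, 479.5 and 606 in Tender animals. The groups overlapped in every class. Tough 1, which had the most reads (a median of 33 scaled reads per cytosine), had the most values near 50% (707). Tender 11, with the next highest depth (31 reads), had the fewest near 0% (359) and near 100% (375), and the part of depth in these counts was not tested. The mean methylation over the all-or-none CpGs lay between 54.7% and 58.3% in every animal.

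The values near 0% were close to empty of methylated reads. Of the reads behind them, 0.492% were methylated, against 0.246% at the 161329 autosomal cytosines that were at 5% or less in all 12 animals. Of the reads behind values near 100%, 98.6% were methylated, against 99% at the 2676 cytosines at 95% or more in all animals. Among single animals, the methylated share of the reads near 0% ran from 0.268% in Tough 6 to 0.806% in Tender 11. The libraries were split here by the bisulfite conversion that the study measured with spike-in DNA. At cytosines low in all animals the methylated share was 0.0983 to 0.169% in the 5 animals with higher conversion (Tough 2, 5 and 6, Tender 8 and 11) and 0.246 to 0.425% in the other 7. Coverage was alike in both states: the ratio of coverage in animals near 100% to that in animals near 0% at the same CpG had a median of 1.04 and quartiles of 0.8 and 1.32.

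The opposite strand followed the all-or-none CpG in the same animal. It was covered for 229 of the 2276 cytosines (10.1%, against 24.8% of autosomal cytosines), and for 170 of these (74.2%, from 85 CpGs) it was itself all-or-none. In animals near 0% at the CpG, the opposite strand had a median of 0% (545 values), in animals near 50% a median of 48.8% (719 values) and in animals near 100% a median of 96.7% (607 values). The 59 opposite strands that did not meet the rule themselves, and so did not reach both limits, had medians of 0%, 46.7% and 85.7%. Per all-or-none cytosine, the opposite strand of animals near 100% exceeded that of animals near 0% by a median of 92.6 percentage points (quartiles 83.2 and 97.4). The 85 CpGs that were all-or-none on both strands entered with each strand, so the 229 differences are not of separate CpGs. The difference was above 80 points at 180 of 229 (78.6%), below 50 points at 14 and below 20 points at 6. Both strands of an animal differed by a median of 6 points at the all-or-none CpGs. This gap was 0 points over all 77969 autosomal CpGs covered on both strands and 13.9 points at the 8563 of them with a mean methylation of 20 to 80%, and counting error, which is smallest near 0 and 100%, is part of each value.

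Of 20 CpGs that were all-or-none on both strands with at least 2 animals in every class on the plus strand, the 6 with the highest lowest coverage show the pattern animal by animal. On chromosome 7 at position 12657016, Tough 1 was at 97.5% on the plus strand and 96% on the minus strand, and Tough 2 to 6 were at 0% on both. In the Tender animals at this CpG, Tender 8 was at 0% on both strands, Tender 7 and 9 were at 97.1 and 96% on the plus strand and at 100% on the minus strand, and Tender 10, 11 and 12 were at 57.9, 48.3 and 51.9% on the plus strand and at 55.6, 61.9 and 47.1% on the minus strand. Every animal was thus in the same class on both strands, and the lowest coverage was 15 reads on the plus strand and 18 on the other. At position 50430825 of chromosome 23, Tough 2, Tough 3 and Tender 12 were at 0% on the plus strand and at 0, 7.69 and 5% on the minus strand. The 3 animals at 100% on the plus strand there, Tough 4, Tender 7 and Tender 10, were at 89.5, 95 and 100% on the minus strand. The other 6 animals had between 35.3 and 63.0% on the plus strand and between 35.5 and 65.4% on the minus strand. At the remaining 4 CpGs (chromosome 6 at 111992856, chromosome 9 at 101993103, and chromosome 17 at 45017522 and 72727817), the minus strand averaged 0 to 0.813% in animals near 0% on the plus strand and 93.8 to 100% in animals near 100%.

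A single all-or-none CpG stood against this pattern by the criterion that its opposite strand was at 80% or more in every animal near 0%. At position 85192385 of chromosome 12 (plus strand), Tough 3 was at 0% and on the minus strand at 86.4%. There the minus strand ran from 70.9 to 92.2% over all animals. The plus strand had a lowest, median and highest value of 0, 80.1 and 95% in Tough and 16.7, 80.01 and 96% in Tender animals, with a lowest coverage of 12 reads on each strand. Tender 11, at 16.7% on the plus strand, was at 75% on the minus strand.

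CpGs close by on the same strand mostly did not follow. Within 50 bp, 2163 all-or-none CpGs had at least 1 covered neighbour that was not all-or-none. These made 5622 pairs of a CpG and a neighbour, and a neighbour shared by several CpGs was counted for each. In animals near 0% at the all-or-none CpG these neighbours had a median methylation of 92.8%, in animals near 50% of 92.3% and in animals near 100% of 95.8%. Per all-or-none CpG, the neighbours of animals near 100% exceeded those of animals near 0% by a median of 1.53 percentage points (quartiles -2.29 and 7.83). With the same restriction, the opposite strands that were not all-or-none differed by a median of 75 points. With all-or-none neighbours included (2166 CpGs), the median was 1.64 points (quartiles -2.27 and 8.46), against the 92.6 points over all opposite strands. Both of these comparisons were chosen after seeing the data. The second is not of like sets. Of the 229 opposite strands 170 were all-or-none and so reached both limits by the rule, while 169 of the 2166 CpGs had an all-or-none neighbour. The difference was within 10 points in either direction at 1589 of 2163 (73.5%). It was small at every distance, with medians of 1.54 points at 1 to 10 bp, 1.52 at 11 to 25 bp and 0.876 at 26 to 50 bp. In single animals, the median of the neighbours lay between 90.9 and 94.7% where the animal was near 0% and between 95.1 and 96.9% where it was near 100%. A neighbour that reached both limits would have been counted as all-or-none, so the neighbours compared here could not move over the whole range. For the 169 all-or-none CpGs with an all-or-none neighbour, that neighbour had medians of 2.38, 55.9 and 91.7% in animals near 0, 50 and 100%, and the difference per CpG had a median of 75.9 points with quartiles of -48.3 and 95.01.

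**Figure D2:**
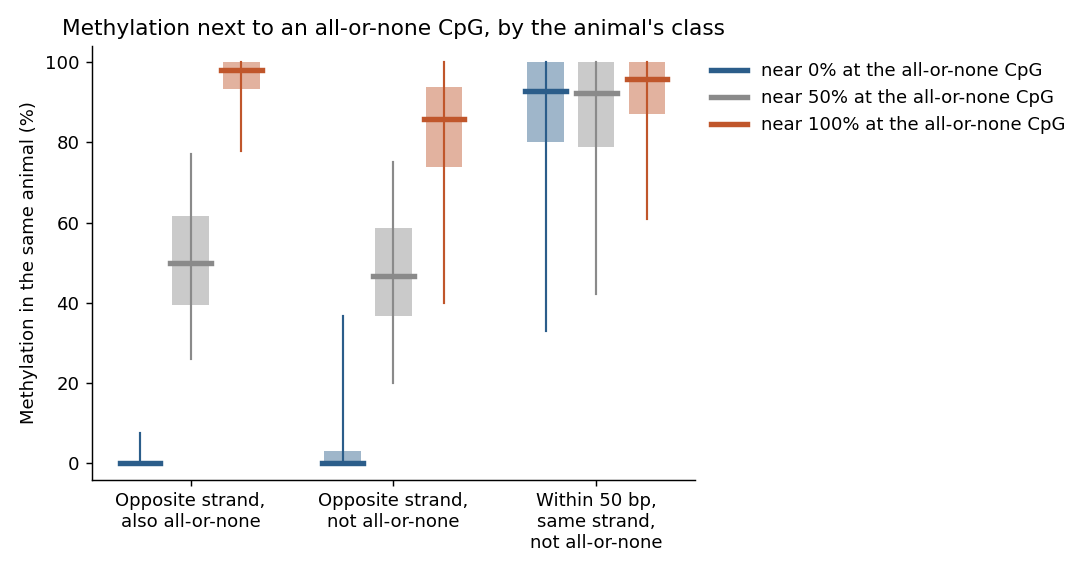
Methylation (y axis, %) of the opposite strand and of cytosines within 50 bp on the same strand, in animals near 0% (blue), near 50% (grey) and near 100% (orange) at the all-or-none CpG; thick lines are medians, boxes quartiles and thin lines the 5th to 95th percentile over values. The opposite strand stepped through 0, 50.0 and 98.0% where it was also all-or-none and through 0, 46.7 and 85.7% where it was not, while the neighbours stayed at 92.8, 92.3 and 95.8%.

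Neighbours that moved with the CpG were found at a few places. The difference exceeded 50 points at 44 of 2163 all-or-none CpGs (2.03%), and 41 of these lay in surroundings with a mean methylation of 20 to 80%. In such surroundings (477 all-or-none CpGs) the median difference was 9.13 points, against 0.804 points where the neighbours were at 80% or more. Among the 930 all-or-none CpGs with at least 3 neighbours, the 5 largest differences were between 78.4 and 84.5 points. At position 16676224 of chromosome 6 (minus strand), which had the largest of them, Tender 9 was at 0% while the other Tender animals were between 73.5 and 98.1% and the Tough animals between 64.9 and 93.0%. Tender 9 was the only animal near 0% there and Tender 8 (98.1%) the only one near 100%, so this difference sets 1 animal against 1. The 3 neighbours of this CpG averaged 51.3% over all animals. The others were on chromosome 1 at 154119636, on chromosome 5 at 45200816 and 45200819, and on chromosome 27 at 19642920, where the 3 or 4 neighbours averaged 32.5 to 57.5%. On chromosomes 1 and 27 only 1 animal was near 0%. Both CpGs on chromosome 5 had the same 3 neighbours and are not separate places.

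All-or-none CpGs lay in methylated surroundings. Of the 2163 with neighbours, 1679 (77.6%) had neighbours with a mean methylation of 80% or more, 477 (22.1%) between 20 and 80% and 7 (0.324%) below 20%. Over all autosomal cytosines these shares were 18.2%, 17.1% and 64.7%. Counted over all covered cytosines within 50 bp, there were 15.3 all-or-none CpGs per 1000 cytosines in surroundings of 80% or more, 5.32 per 1000 between 20 and 80%, and 0.0132 per 1000 below 20% (5 of 377596). A CpG in unmethylated surroundings that is itself unmethylated in every animal cannot meet the rule, so this distribution is partly set by it.

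All-or-none CpGs were less often the first covered cytosine on their strand than autosomal cytosines were, by an amount that depended on the window. With no genome of the build at hand, the first covered cytosine, with none covered within 50 bp on its 5′ side, was taken as the nearest stand-in for the start of the reads, and whether it lay at the cut was not tested. Of the all-or-none CpGs 203 (8.92%) were first, against 28% of all autosomal cytosines, 42.3% of those with a mean methylation of 20 to 80% and 40.5% of those above 80%. With 25 bp in place of 50 bp the shares were 27.2% against 36.4%, and with 100 bp 8.66% against 26%, 2 settings added after the data had been seen. Among cytosines with a mean methylation of 20 to 95%, 2.42 per 1000 of the first cytosines and 18.1 per 1000 of the later ones were all-or-none.

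Every autosome held all-or-none CpGs, from 31 on chromosome 28 to 129 on chromosome 25. Per 1000 cytosines covered, the number ran from 2.26 on chromosome 7 to 5.98 on chromosome 27. Within surroundings of 80% or more it ran from 11.8 to 23.6 per 1000, again between chromosomes 7 and 27.

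Most all-or-none CpGs stood alone. With gaps of 50 bp or less on the same strand, 2107 were single and 169 formed 80 stretches of 2 or more. The 3 stretches with the most all-or-none CpGs differed in kind. On the minus strand of chromosome 5 between 45200777 and 45200819 (43 bp), 6 of 7 covered cytosines were all-or-none and moved as 1 unit, with correlations over the 12 animals of at least 0.984. Their mean was 0% in Tough 2, 1.52% in Tough 5, 2.59% in Tender 7 and 26.9% in Tough 4, between 59.3 and 74.2% in 6 animals, 89.9% in Tender 11 and 96.3% in Tender 12. On the plus strand of chromosome 14, 4 all-or-none CpGs stood 3 bp apart from 70296729 to 70296738, with 59 to 103 reads per value. Their profiles differed: the lowest correlation was -0.73, and at the outer 2 positions Tough 1 was at 0 and 96.9%, Tough 4 at 96.1 and 1.04%, Tender 8 at 0 and 81.0%, and Tender 12 at 98.5 and 0%. At the inner 2 positions Tough 1 was at 0% and Tender 8 at 64.4 and 61.9%. On the plus strand of chromosome 10 between 100043422 and 100043468, 3 of 3 covered cytosines were all-or-none through Tender 7, which averaged 1.59% while the other 11 animals averaged 71.0 to 98.4%.

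Profiles of all-or-none CpGs were alike at short distances and not at long ones. As a measure of likeness, the squared correlation of methylation over the 12 animals was taken for every pair. It had a median of 0.836 between both strands of a CpG (85 pairs), 0.749 at 2 to 50 bp (123 pairs), 0.688 at 51 to 1000 bp (46 pairs), 0.460 at 1 to 10 kb (151 pairs), 0.200 at 10 to 100 kb (1137 pairs) and 0.0802 at 100 kb to 1 Mb (7477 pairs). Beyond 10 Mb it was 0.0497, and between chromosomes 0.0493. Between an all-or-none CpG and a neighbour within 50 bp that was not all-or-none it was 0.0646 (5606 pairs). The 2 strands correlated positively in 100% of pairs, while at 2 to 50 bp 63.4% of pairs did. Of the 60 pairs at 2 to 50 bp with a squared correlation above 0.8, 95% were positive. These are descriptions over 12 animals that share the same libraries, and the pairs are not independent of each other.

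**Figure D3:**
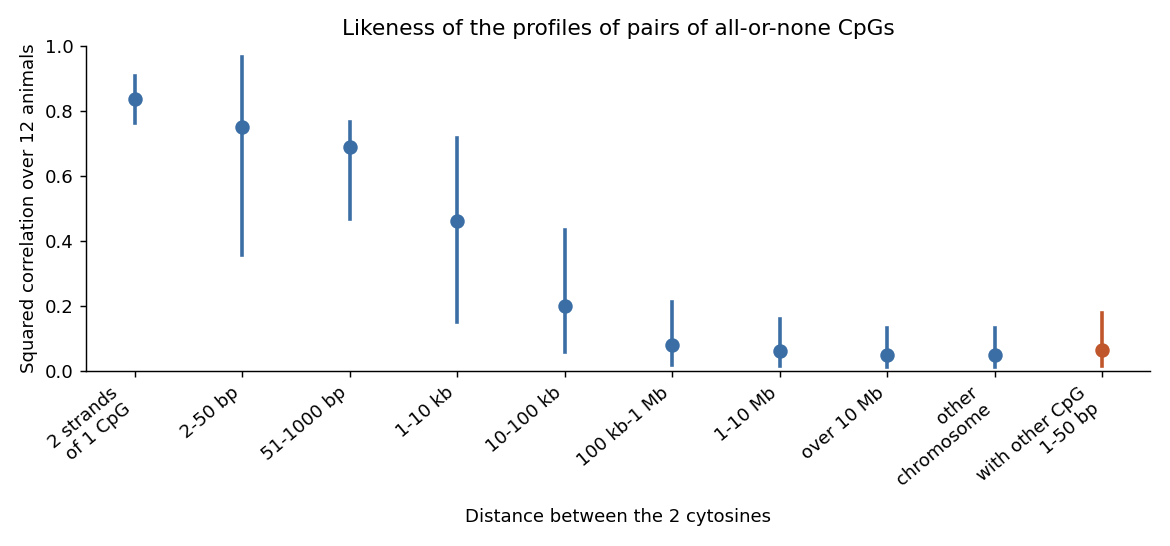
Squared correlation of methylation over the 12 animals (y axis) for pairs of all-or-none CpGs by distance (x axis, blue), and for pairs of an all-or-none CpG with another cytosine within 50 bp (orange); points are medians and lines quartiles over pairs. The median falls from 0.836 for the strands of a CpG through 0.200 at 10 to 100 kb to the level of different chromosomes, 0.0493.

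Some animals were more alike than others over these CpGs. For each pair of animals, the share of all-or-none CpGs in the same class was taken over the CpGs where both were near 0, 50 or 100%. Over the 66 pairs it ran from 30.4 to 48.9% with a median of 38.1%. The 3 highest shares joined Tough 1 with Tender 11 (48.9%), Tough 1 with Tender 9 (47.4%) and Tender 9 with Tender 11 (44.6%). In these pairs 1 animal was near 0% while the other was near 100% at 6.39, 7.97 and 7.77% of the CpGs, against a median of 16.4% over all pairs and a lowest value of 11.8% in the other 63. The shares of the first pair were 49.2% on odd-numbered and 48.4% on even-numbered chromosomes. Tender 8 and Tender 12 followed with 43.8%, and 14.3% near 0 against near 100%. The tenderness groups did not order the pairs: the median share was 38.1% for the 30 pairs within a group and 38.1% for the 36 pairs between groups. How these animals were related was not analysed here.

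**Figure D4:**
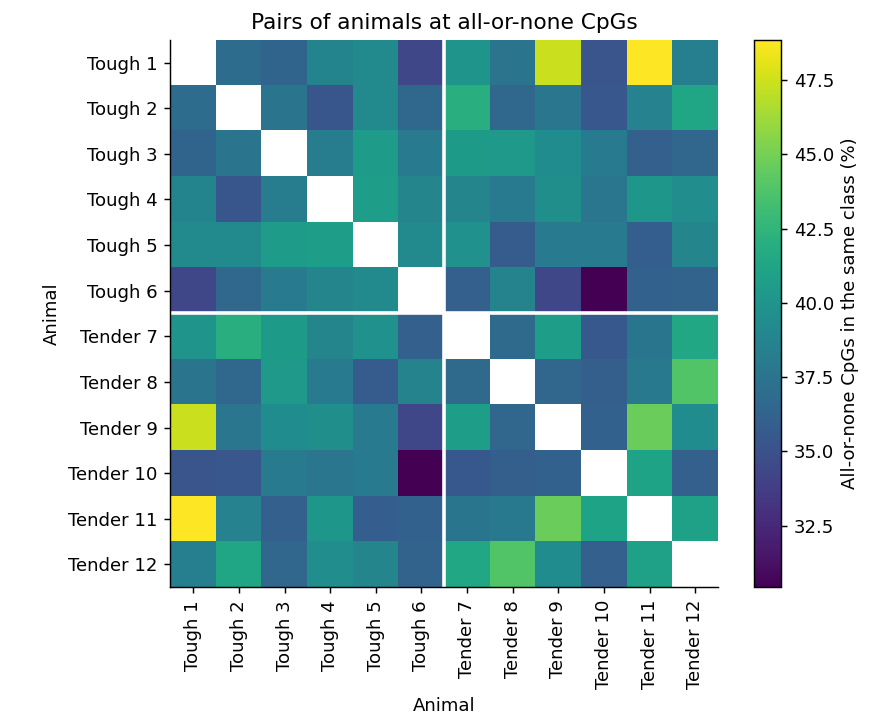
Share of all-or-none CpGs at which 2 animals were in the same class (colour, %), for all 66 pairs of the 12 animals; the white lines part the 6 Tough from the 6 Tender animals. Tough 1, Tender 9 and Tender 11 form the 3 brightest pairs (44.6 to 48.9%), and the blocks within and between groups have the same median of 38.1%.

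The comparison of Tender with Tough animals was fitted at all 635469 cytosines by logistic regression with a correction for overdispersion, that is, for more spread between animals than counting gives. A cytosine was called differentially methylated (DMC) when its Benjamini-Hochberg adjusted p-value was under 0.05 and the pooled methylation of Tender animals lay more than 25% above or below that of Tough animals. Differences are given as Tender minus Tough. Of the 2276 all-or-none CpGs 5 were DMCs (0.220%), against 0.019% of all cytosines, 4 with higher methylation in Tender and 1 with higher methylation in Tough animals. The CpGs were chosen for their spread over the same 12 animals, so large differences were common among them without a call. The difference exceeded 25% at 473 (20.8%, against 0.225% of all cytosines), and the unadjusted p-value was under 0.05 at 185 (8.13%, against 8.29%). The median overdispersion factor was 14.4 at the all-or-none CpGs and 1.59 over all cytosines. Over all 2276, 1186 had the higher pooled methylation in Tender and 1090 in Tough animals, and the median difference was 1.24 percentage points. At 9 CpGs the groups did not overlap (0.395%, against 0.0965% of all cytosines), and 4 of these were DMCs.

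The calls depended on the test. With an F-test in place of the chi-square test, which takes the small number of animals into account, 0 of the 2276 all-or-none CpGs were called (129 had an unadjusted p-value under 0.05), against 9 of all 635469 cytosines. limma on log2 ratios called 0 of the 2276 (212 unadjusted) and 0 of all cytosines. The unadjusted share over all cytosines was not computed for these tests. Without 1 animal the count was between 2 and 11, and that over all cytosines between 128 and 196. It moved by more than 1.5 times without Tough 1 (9), Tough 4 (11), Tough 6 (3), Tender 7 (8), Tender 8 (8) or Tender 10 (2).

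The DMC with higher methylation in Tough animals was at position 108173427 of chromosome 3 (plus strand), in an intron of *EPHA10* by the study's annotation, a receptor of the Eph family that binds ephrins on neighbouring cells. Its lowest, median and highest values were 60.0, 95.8 and 100% in Tough and 0, 28.3 and 43.2% in Tender animals, and the groups did not overlap. The means were 87.0% ± 17.3 and 23.5% ± 20.3 (SD, n = 6 each), with 14 to 39 reads per value. The pooled difference was -62.9% (adjusted p = 0.00916 by the logistic model, and exact two-sided permutation p = 0.00216, the smallest that 6 against 6 allow, unadjusted). Where the groups do not overlap, this exact p is fixed. The DMCs were also chosen for their group difference, so the exact p is no second test of them. The opposite strand, itself all-or-none, had 48.8, 84.1 and 100% in Tough and 0, 51 and 60.0% in Tender animals. Its difference was -41.1% and did not pass (adjusted p = 0.391 by the logistic model, exact two-sided permutation p = 0.00866, unadjusted). The 3 neighbours within 50 bp that were not all-or-none differed by 3.87 to 12.1%, in the opposite direction, and passed nowhere. The call held without any 1 of the 12 animals, but not in the F-test (adjusted p = 0.386).

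On chromosome 18, 2 DMCs lay on the plus strand between genes, at 56248254 (a CpG island near *IL4I1* and *NUP62*) and at 56263782 (near *ATF5* and *NUP62*). *NUP62* encodes a protein of the nuclear pore, *IL4I1* an L-amino acid oxidase and *ATF5* a transcription factor. At 56248254, Tough animals had a lowest, median and highest value of 0, 39.8 and 93.3% and Tender animals of 94.9, 100 and 100%. All Tender animals were thus at the top of the range, while the Tough animals were spread over the whole range. The pooled difference was 60.7% (adjusted p = 0.0162 by the logistic model, and exact two-sided permutation p = 0.00216, unadjusted and fixed by the lack of overlap). Its 5 neighbours differed by -5.23 to 2.80% and averaged 95.2%. At 56263782, Tough 4 was at 16.7% and the other Tough animals at 0%, while Tender animals had 22.2, 53.6 and 100%. The difference was 53.8% (adjusted p = 0.0295 by the logistic model, and exact two-sided permutation p = 0.00216, unadjusted), with 12 to 24 reads per value. Its single neighbour averaged 93.9% and differed by 7.72%. The opposite strand of both was not covered.

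The remaining DMCs lay in introns and CpG islands by the study's annotation. At position 119075640 of chromosome 4 (minus strand), in *PTPRN2*, a phosphatase-like protein of secretory vesicles, Tough animals had 0, 43.8 and 87.0% and Tender animals 83.8, 100 and 100%. The ranges overlapped through Tough 2 and Tender 7. The difference was 55.3% (adjusted p = 0.0471 by the logistic model, and exact two-sided permutation p = 0.00433, unadjusted). The 3 neighbours, with a mean of 97.2%, differed by -4.31 to 1.44%. At position 117127274 of chromosome 5 (plus strand), in *TBC1D22A*, a protein with the TBC domain of Rab GTPase-activating proteins, Tough animals had 0, 23.7 and 56.3% and Tender animals 64.3, 69.0 and 100%, without overlap. The difference was 52.2% (adjusted p = 0.0426 by the logistic model, and exact two-sided permutation p = 0.00216, unadjusted), with 13 to 27 reads per value. Its opposite strand, also all-or-none, had 0, 42.7 and 92.3% in Tough and 45, 92.8 and 100% in Tender animals. The difference on that strand was 43.0% and did not pass (adjusted p = 0.465 by the logistic model, exact two-sided permutation p = 0.0346, unadjusted). In *PTPRN2* the call was kept without Tough 2, Tough 4 or Tender 7 and lost without any other animal, and in *TBC1D22A* it was kept without Tough 4 or Tough 5. At 56263782 of chromosome 18 it was kept without Tough 4, Tender 7, Tender 8, Tender 9 or Tender 11, and at 56248254 it was lost only without Tender 12 (adjusted p = 0.0517 by the logistic model). With F-tests, the adjusted p of these 4 DMCs was between 0.446 and 0.566.

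**Figure D5:**
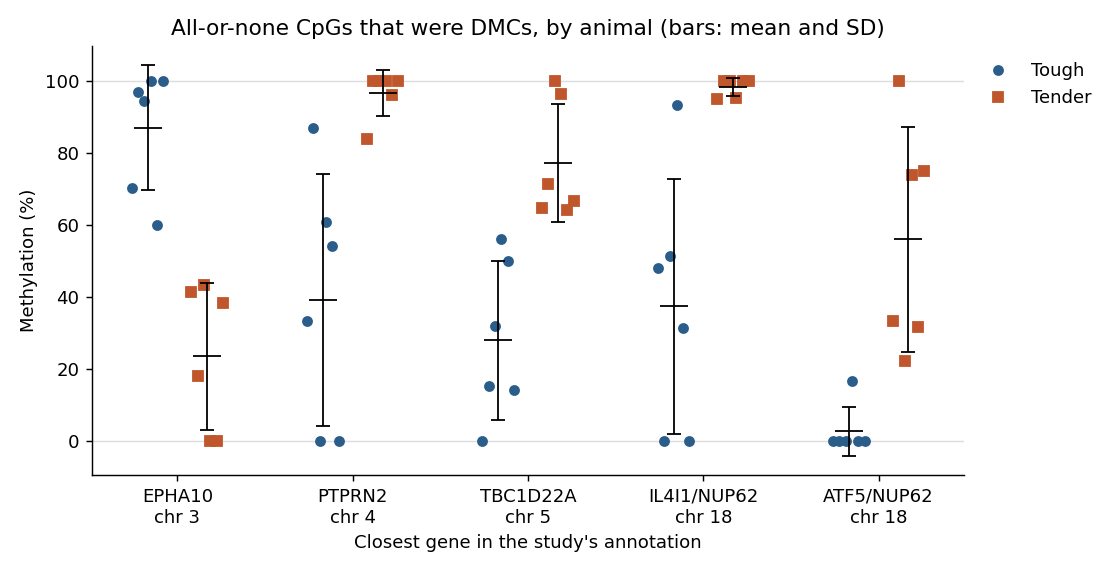
Methylation (y axis, %) of each Tough (blue circles) and Tender animal (orange squares) at the 5 all-or-none CpGs that were DMCs (x axis, closest gene in the study's annotation and chromosome); black bars are the mean and SD of 6 animals. Tender animals were lower at the *EPHA10* CpG and higher at the other 4, and only at the *PTPRN2* CpG did the ranges overlap.

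The difference had the same direction within both classes of bisulfite conversion at the 5 DMCs. At the 4 DMCs where the groups did not overlap, this direction was fixed in advance. The part of conversion was therefore not tested by it. Between animals of higher conversion (3 Tough, 2 Tender) the means differed by -76.6% at *EPHA10*, 51% at *PTPRN2*, 41.3% at *TBC1D22A*, 89.5% at 56248254 and 65.8% at 56263782 of chromosome 18. Between animals of lower conversion (3 Tough, 4 Tender) they differed by -57.5%, 64.6%, 52.5%, 33.2% and 45.6%. With the conversion class as a covariate, 8 all-or-none CpGs were called (0.351%), against 146 of all 635469 cytosines (0.0230%). The call at *TBC1D22A* was lost in this fit (adjusted p = 0.0569 by the logistic model).

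Membership had a sharp limit and many CpGs close to it. Of the all-or-none CpGs, 237 were within 1 percentage point of a limit, and 207 autosomal cytosines missed the limits by 1 point or less. On chromosome 1, the CpGs at 57410574 (minus strand) and 154119642 (plus strand) were included with a lowest value of 5% and a highest of 100%. On chromosome 6 at 113662380 (minus strand) and on chromosome 18 at 61514016 (plus strand), cytosines with a lowest value of 0% and a highest of 94.9% were left out.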

How the data were processed

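RRBS libraries of 12 muscle samples were sequenced as single reads of 50 bp. The authors used Trim Galore 0.4.1 for trimming and Bismark 0.23.0 for alignment to ARS-UCD1.2 and, in methylKit 1.8.1, kept cytosines with at least 10 reads and below a high percentile of coverage, covered in all 12 animals. The deposited numbers of reads are scaled scores, since the authors adjusted each animal's coverage by a factor between 1 and 1.27 and rounded the result. The planned logistic model was kept, and reads before scaling, recovered for every value, were an alternative.

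Methylation is methylated over all reads. Tests were written in Python 3.11.15 (numpy 2.4.6, scipy 1.17.1) as logistic regression with a McCullagh-Nelder overdispersion factor, a chi-square test and Benjamini-Hochberg adjustment over all cytosines, and tested on simulated data. limma 3.58.1 (pseudocount 1) was an alternative. Values are not corrected for conversion.

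The CpGs, their classes and the comparisons were chosen with earlier results of these data known. Named sites followed fixed criteria. These were the 6 CpGs covered best on both strands with 2 animals per class, and all DMCs. Further criteria were opposite strands at 80% or more in animals near 0%, and the 5 largest neighbour differences. The last were the 3 stretches with the most all-or-none CpGs, and 2 CpGs on each side of the limits. Gene locations come from the study's annotation of its DMCs. Lists of tenderness and imprinted genes could not be looked up and no sequence is shown, because no genome or annotation of this build was used here.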

Additional observations from a re-analysis of the deposited data

Results flagged for a closer look

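In a group of 6 animals, a single animal stood apart from the other 5 in 14 of the 100 groups tested. The sites were chosen for large spread between animals, so such gaps are frequent among them. The usual rate of about 1 in 20 groups by chance is therefore no measure for these sites. Sites of the same stretch are also not separate. Tender 11 had 0.806% methylated reads among its values near 0%, against 0.492 to 0.589% in the other Tender animals.

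Tough 1 was at 97.5% at 12657016 of chromosome 7 while the other Tough animals were at 0%. Tender 11 was at 4.08% at 72727817 of chromosome 17 (others 55.3 to 78.8%). Tender 7 was at 83.8% at the *PTPRN2* DMC of chromosome 4 (others 96.2 to 100%). Tough 4 was at 16.7% at the DMC at 56263782 of chromosome 18 (others 0%). Tough 3 was at 0% at 85192385 of chromosome 12 (others 74.1 to 95%). Tender 9 was at 0% at 16676224 of chromosome 6 (others 73.5 to 98.1%).

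Tender 7 stood apart in the stretches on chromosomes 5 and 10. On chromosome 5 it was at 4% at 45200819, at 3.85% at 45200777, 45200780 and 45200810 and at 0% at 45200789 (others 61.9 to 96.3% at each). On chromosome 10 it was at 0% at 100043422 (others 83.3 to 100%) and at 2.38% at 100043468 (others 70.5 to 97.1%).

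Outside the autosomes, 12 of 3042 cytosines on chromosome X met the same limits (3.94 per 1000, against 3.61 per 1000 on the autosomes). Of their 144 values 25 were near 0%, 36 near 50% and 43 near 100%. Several of the 12 lay between 134884913 and 138539787. The values were pooled over all positions, without regard to the number of X chromosomes in a steer. Of 2565 cytosines on unplaced scaffolds 2 met the limits, and of 162 on the mitochondrial genome 0 did. This comparison has no control samples and was not tested.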

How the results depend on the processing

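The number of all-or-none CpGs was 3524 with limits of 10 and 90%, 633 with at least 2 animals at each limit, 547 with at least 20 reads in every animal and 2154 on reads before scaling, and 2044 to 2191 without 1 animal. The difference on the opposite strand was 95.7 points with at least 20 reads (13 cytosines), 75 points over the 59 opposite strands that were not all-or-none (added after the data had been seen) and 91.8 to 93.7 points without 1 animal. The difference of the neighbours was 1.42 to 1.59 points without 1 animal and stayed within the spread between animals under the other settings. The number of DMCs among the all-or-none CpGs was 0 with the F-test (129 of 2276 at an unadjusted p-value under 0.05) and with limma (212). It was 473 with no overdispersion correction, 8 with the conversion class as a covariate, 5 on reads before scaling, and 2 to 11 without 1 animal. With at least 20 reads it was also 0 (50 of 547 at an unadjusted p-value under 0.05). The 5 DMCs had a lowest coverage of 12 to 18 reads, so this setting left them out before the test and could not keep them. Over the whole table, 91 DMCs were called on reads before scaling and 1431 with no overdispersion correction, against 121. With the conversion class as a covariate 146 were called there, and with at least 20 reads 24 of 176982. Unadjusted counts over all cytosines were not computed for the alternative settings. Without Tough 1, Tender 9 and Tender 11 together, the number of all-or-none CpGs was 1883 and the opposite strand differed by 91.7 points, an alternative added after the data had been seen. With the reads of both strands summed, 92 CpGs were all-or-none, against 144 with either strand so. Depth limits the classes most at 10 reads. Among these results, none changed direction under the settings run; the likeness of animals, the surroundings and the rates per chromosome were computed in 1 way only. No paired analysis was possible because the labels give the animals no shared replicate numbers.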
